A study of Rattus norvegicus with 20 samples.

Results

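The let-7 family of rat microRNAs (miRNAs, short RNAs that repress messages they pair with) was represented by 9 of the 677 rat miRNAs on the array. The members were the array's entries rno-let-7a-5p, rno-let-7b-5p, rno-let-7c-5p, rno-let-7d-5p, rno-let-7e-5p, rno-let-7f-5p, rno-let-7i-5p and rno-miR-98-5p, with rno-let-7b-3p, the arm left over when let-7b is cut from its precursor. They were picked by their names, and the species prefix is left out below. Total RNA from 2 stages of male germ cells of Sprague-Dawley rats was labelled with Cy3 and hybridised to 20 one-colour Agilent arrays. The treated males received cyclophosphamide, an alkylating drug used in chemotherapy, by gavage at 6 mg/kg, and the controls received saline on the same schedule of 6 days a week for 4 weeks. The arrays formed 4 groups of 5, named here CPA round spermatids, saline round spermatids, CPA pachytene spermatocytes and saline pachytene spermatocytes. No group carried a genetic change, and the age of the rats was not given in the sources used here. Both cell types were separated by sedimentation at unit gravity, so a fraction can hold some cells of other types. Arrays are named by the rat number in their labels. The number 16 stands for 2 CPA pachytene arrays, called the earlier and the later rat 16. Whether the same number in both cell types of a treatment marks 1 animal is not settled by the labels, and the p-values measure the spread between arrays.

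The let-7 miRNA was first found in the worm Caenorhabditis elegans, where it times the passage of cells into their adult fates, and its mature sequence is nearly unchanged in mammals. The mammalian 5p members share one seed, the bases at the 5′ end that pair with target messages, and are known to repress growth and stem cell genes such as Hmga2, Lin28 and Ras genes. LIN28 proteins in turn block the maturation of let-7 precursors, and let-7 levels generally rise as cells differentiate. In the mouse testis, let-7 is known for its increase when spermatogonia differentiate. In pachytene spermatocytes, paired chromosomes exchange DNA during the first meiotic prophase, and the second division then yields haploid round spermatids, which go on to form sperm.

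The sequences show how alike the members are, which bears on what an array probe can tell apart. All 9 members had a mature sequence in RefSeq (rat assembly GRCr8). They are printed 5′ to 3′ with the seed, bases 2 to 8, in capitals.
let-7a-5p: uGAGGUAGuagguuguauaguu
let-7b-5p: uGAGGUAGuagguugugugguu
let-7c-5p: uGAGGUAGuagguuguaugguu
let-7d-5p: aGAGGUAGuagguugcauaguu
let-7e-5p: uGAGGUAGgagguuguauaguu
let-7f-5p: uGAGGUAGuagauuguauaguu
let-7i-5p: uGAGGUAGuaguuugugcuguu
miR-98-5p: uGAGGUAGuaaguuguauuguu
let-7b-3p: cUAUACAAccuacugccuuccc
The 8 members of the 5p arm held the same seed and the same length of 22 bases. Their 28 pairs differed at 1 to 6 bases, and 4 pairs differed at a single base. Counted from 1 at the 5′ end and set against let-7a-5p, let-7c-5p had 1 substitution, A19G. let-7b-5p had A17G and A19G, so it differs from let-7c-5p at 1 base. miR-98-5p had G11A and A19U. let-7f-5p had G12A, let-7e-5p U9G, and let-7d-5p U1A and U16C, while let-7i-5p had 4 substitutions, G12U, A17G, U18C and A19U. let-7b-3p is largely the complement of the 5p arm and has a seed of its own. How far a probe also captured the nearest relatives of its miRNA was not tested.

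The genes lie in several clusters. let-7b-5p maps to chr7:118684044-118684065 on the plus strand, 408 bases downstream of a let-7c-5p copy at chr7:118683636-118683657. A further copy of let-7c-5p lies at chr11:29688127-29688148. One copy each of let-7a-5p and let-7f-5p and the only copy of let-7d-5p lie close together on chromosome 17, within 2128 bases from start to start. miR-98-5p lies at chrX:24460663-24460684, 611 bases from the X-linked copy of let-7f-5p. let-7a-5p and let-7f-5p thus each have 2 loci, and an array signal sums over them. The coordinates are those of GRCr8, and the array files themselves gave none.

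Signals are log2 values after each array was scaled to a common 75th percentile and held at a floor of 3.61, so a difference of 1 is 2-fold. All 9 members were detected by Agilent's Feature Extraction software on all 20 arrays and were among the 217 miRNAs tested. Pairs of replicates had a Pearson r of 0.958 to 0.996. The germ cell markers miR-34b, miR-34c and miR-449a were present on every array, with a summed signal, on the linear scale, of 22786 to 35494 in CPA and 15393 to 31083 in saline round spermatids, against 15537 to 23750 in CPA and 15718 to 24045 in saline pachytene spermatocytes. The arrays lay on 3 slides. Those of slide 3, and no others, were scanned on the later of 2 scan days. Slide 3 and scan day therefore cannot be told apart, and a fit by scan day sets slide 3 against the rest. The pachytene groups each had 3 arrays on slide 2 and 2 on slide 1. CPA round spermatids had 1 array on slide 3, 1 on slide 2 and 3 on slide 1, and saline round spermatids had 3, 1 and 1 in that order. Slide and treatment were therefore partly mixed in round spermatids. Slide 3 held round spermatid arrays only, so slide and cell type were partly mixed too, most of all in saline rats. In these bulk samples, fewer cells of a type and less RNA per cell cannot be told apart.

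The first comparison asked how the members differed between the 2 stages within each treatment. let-7b-5p was lower in round spermatids in both treatments. let-7c-5p was lower in both too, but in saline rats its call was lost with the slide or the scan day as a block. let-7a-5p and let-7f-5p, which differ from let-7c-5p at 1 and 2 bases, had log2 differences of at most 0.11. miR-98-5p was lower in CPA rats. let-7b-3p was higher in saline rats. In CPA rats 3 of the 9 members passed the test, all of them lower, and 53% of the 217 tested miRNAs did so in either direction (30.4% higher and 22.6% lower). In saline rats 3 of 9 passed, 1 higher and 2 lower, against 47.9% of all tested (26.3% higher and 21.7% lower). The median log2 difference of the 9 members was -0.06 in CPA and -0.0015 in saline rats, beside 0.06 and 0.02 for all tested miRNAs.

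**Figure D1:**
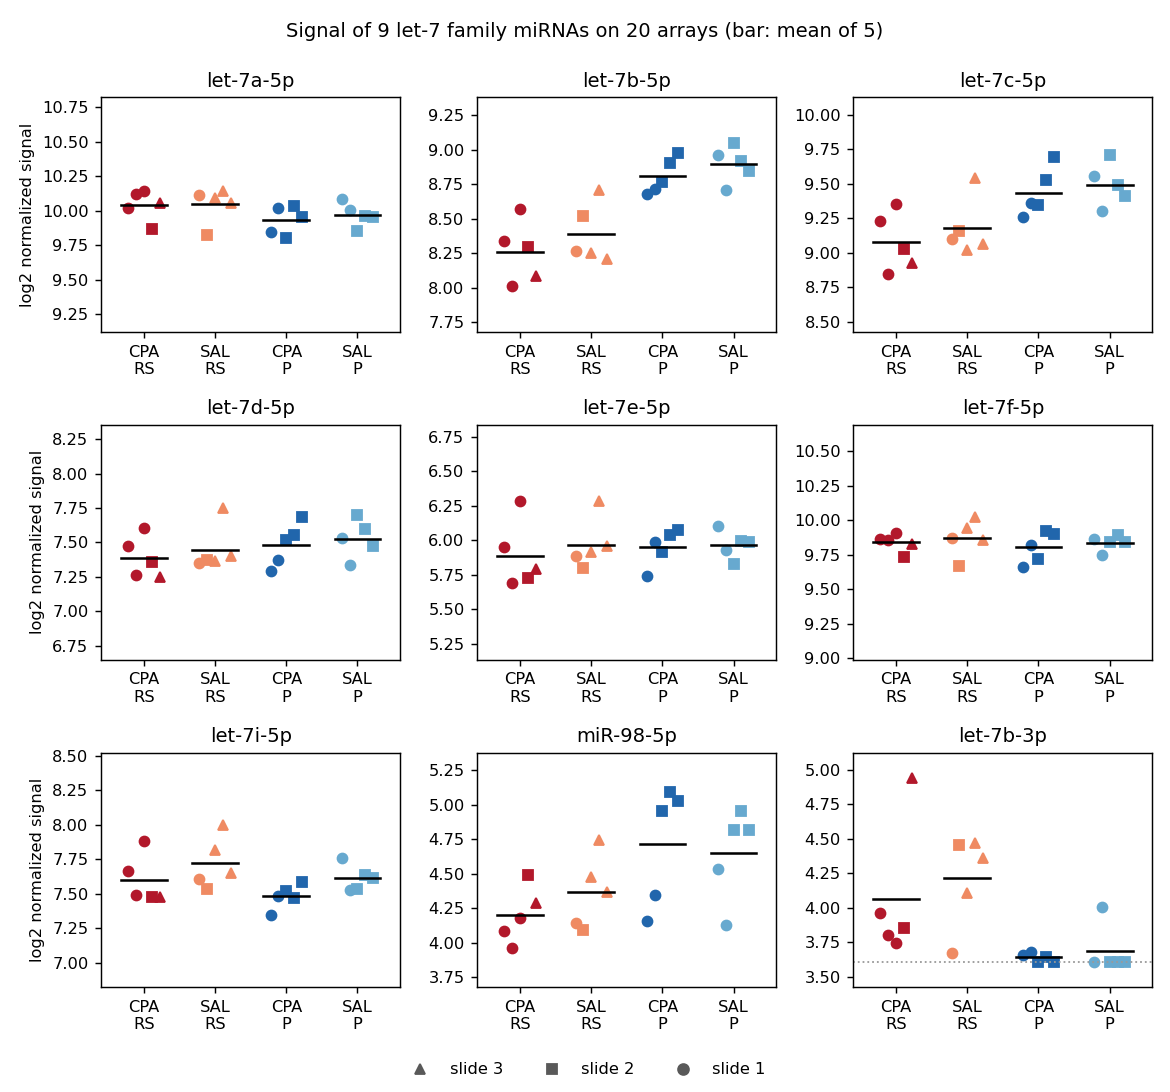
Normalized log2 signal of each member on each of the 20 arrays, in CPA and saline round spermatids (RS) and CPA and saline pachytene spermatocytes (P). Symbols mark the slide, bars the mean of 5 arrays, the dotted line the floor, and every panel spans the same number of log2 units. By their means, let-7b-5p and let-7c-5p lie lower in both round spermatid groups. The groups of let-7c-5p overlap in both treatments and those of let-7b-5p in saline rats. The groups of let-7a-5p and let-7f-5p overlap in both treatments.

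let-7b-5p showed the clearest difference. Its log2 signal in CPA round spermatids was 8.34, 8.01, 8.57, 8.29 and 8.08 in rats 14, 15, 16, 25 and 26, against 8.68, 8.72, 8.77, 8.90 and 8.98 in CPA pachytene spermatocytes of rats 7, 15, earlier 16, later 16 and 29. Every CPA round spermatid array lay below every CPA pachytene array. In saline round spermatids it was 8.27, 8.52, 8.25, 8.71 and 8.21 in rats 15, 16, 17, 25 and 28, against 8.96, 8.71, 9.05, 8.92 and 8.85 in saline pachytene spermatocytes of rats 13, 16, 25, 26 and 28. These groups met at one point, where the round spermatid array of rat 25 equalled the lowest pachytene array to 2 decimals. The log2 difference was -0.55 ± 0.11 (SE) in CPA rats, a level of 0.684 times that of pachytene spermatocytes (limma's adjusted p 0.000439). In saline rats it was -0.51 ± 0.11, or 0.704 times, with an adjusted p of 0.000997. Both probes of let-7b-5p, each printed as 10 spots per array, gave the difference. The dimmer probe stood at -0.57 in CPA and -0.48 in saline rats. The call was kept in all 10 fits per treatment that each left out 1 array of the groups compared. Within slide 2, which held 1 round spermatid array of each treatment, the difference was -0.59 in CPA and -0.42 in saline rats. Within slide 1, with 3 round spermatid arrays in CPA and 1 in saline rats, it was -0.39 and -0.57. limma gave adjusted p of 0.0101 and 0.0306 within slide 2 and of 0.113 and 0.117 within slide 1, and a lone array is assumed there to vary like the arrays of the other groups.

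let-7c-5p, made from the locus next to let-7b and from a copy on chromosome 11, was the other member that was lower in both treatments. Its log2 signal was 9.23, 8.84, 9.36, 9.03 and 8.93 in CPA round spermatids, against 9.26, 9.36, 9.34, 9.52 and 9.69 in CPA pachytene spermatocytes, rats in the order given above. The round spermatid array of rat 16 overlapped the pachytene arrays. It was 9.10, 9.16, 9.02, 9.54 and 9.06 in saline round spermatids and 9.55, 9.30, 9.71, 9.49 and 9.41 in saline pachytene spermatocytes, where rat 25 of the round spermatids stood among the pachytene arrays and the other 4 lay below them. The difference was -0.36 ± 0.12 (SE, adjusted p by limma 0.0171) in CPA rats and -0.32 ± 0.12 (0.0340) in saline rats. These calls were close to the threshold. With the slide as a block the difference was -0.33 (adjusted p 0.0374) in CPA and -0.29 (0.115) in saline rats, and with the scan day as a block -0.35 (0.0222) and -0.30 (0.0999). Over the alternatives other than leaving out 1 array, the call was kept in 13 of 19 in CPA and 8 of 20 in saline rats. In saline rats the call was lost on leaving out the round spermatid arrays of rats 15, 16, 17 or 28 or the pachytene arrays of rats 13, 25 or 26, with differences between -0.32 and -0.26 and adjusted p of 0.0517 to 0.0973. In CPA rats it was lost without the pachytene array of rat 29 (-0.29, adjusted p 0.0551) or the round spermatid array of rat 15 (-0.30, 0.0528). The dimmer probe of let-7c-5p gave -0.23 in CPA and -0.12 in saline rats, so the 2 probes disagreed in size.

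let-7a-5p carries the canonical let-7 sequence. Its log2 signal was 10.02, 10.12, 10.14, 9.87 and 10.06 in CPA round spermatids, against 9.85, 10.02, 9.80, 10.04 and 9.95 in CPA pachytene spermatocytes. It was 10.11, 9.82, 10.09, 10.14 and 10.05 in saline round spermatids and 10.08, 10.01, 9.85, 9.96 and 9.95 in saline pachytene spermatocytes. The groups overlapped in both treatments. The differences were 0.11 ± 0.08 (SE, 95% interval -0.05 to 0.27) in CPA rats and 0.07 ± 0.08 (-0.09 to 0.24) in saline rats, neither past the threshold. let-7f-5p ranged between 9.73 and 9.91 in CPA round spermatids, 9.66 and 10.02 in saline round spermatids, 9.66 and 9.92 in CPA pachytene and 9.75 and 9.89 in saline pachytene spermatocytes. Its differences were 0.04 (-0.12 to 0.19) in CPA and 0.03 (-0.12 to 0.18) in saline rats. Quantile normalization, which makes all arrays share one distribution, turned both miRNAs to the other side of 0 and past the threshold, to -0.21 in each treatment for let-7a-5p and to -0.27 in CPA and -0.24 in saline rats for let-7f-5p. The differences of these members thus depended on the normalization. In the authors' deposited table, let-7a-5p and let-7f-5p followed the scanner values at r of -0.30 and 0.28 over the 20 arrays, so they were not tested there.

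The contrast between members does not need the array scaling when 1 member is set against another on the same array. Relative to let-7a-5p, let-7b-5p averaged -1.78 ± 0.25 (SD, n = 5) in CPA round spermatids, against -1.12 ± 0.13 in CPA pachytene spermatocytes. It averaged -1.65 ± 0.26 in saline round spermatids and -1.07 ± 0.18 in saline pachytene spermatocytes. No round spermatid array reached the lowest pachytene array of its treatment. The highest round spermatid and the lowest pachytene array stood at -1.57 and -1.31 in CPA rats, but both at -1.30, apart only in the next decimal, in saline rats. The log2 ratio thus differed by -0.66 in CPA and -0.58 in saline rats. let-7c-5p relative to let-7a-5p differed by -0.47 in CPA rats, where the groups did not overlap, and by -0.39 in saline rats, where they did. Of all other tested miRNAs set against let-7a-5p, 35.6% in CPA and 31% in saline rats had groups that did not overlap. The ratio of let-7f-5p to let-7a-5p differed by -0.08 and -0.04. The level of a ratio also holds the 2 probes' own brightness, so only its change between groups is read here.

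**Figure D2:**
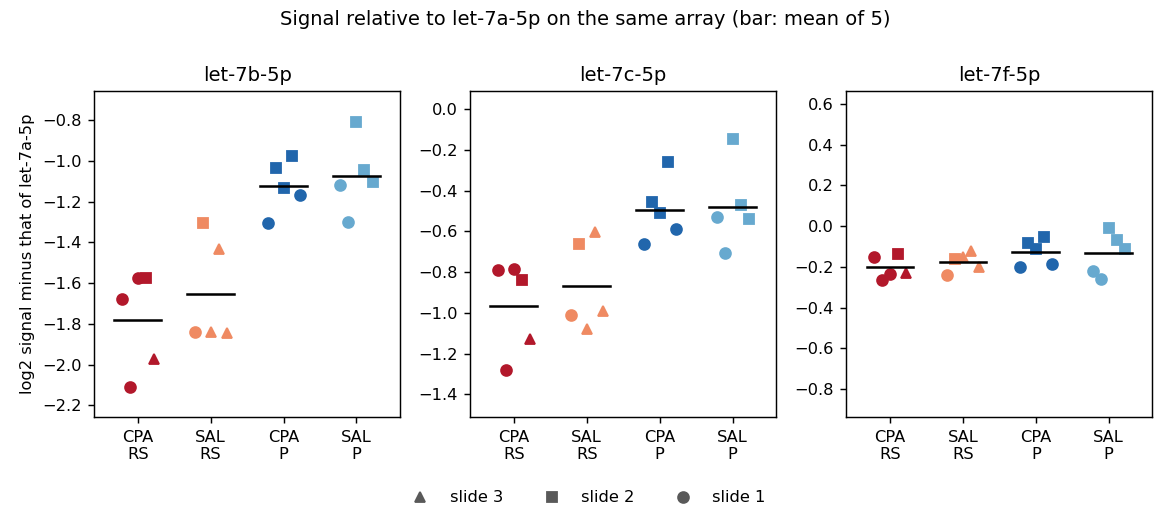
Log2 signal of let-7b-5p, let-7c-5p and let-7f-5p minus that of let-7a-5p on the same array, in CPA and saline round spermatids (RS) and CPA and saline pachytene spermatocytes (P), with bars at the mean of 5 arrays. The let-7b-5p ratio was lower in every round spermatid array than in any pachytene array of the same treatment, while the let-7f-5p ratio overlapped.

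The remaining 5p members, let-7d-5p, let-7e-5p and let-7i-5p, gave small differences that did not pass. let-7d-5p stood at -0.09 in CPA and -0.08 in saline rats, let-7e-5p at -0.06 and -0.0015, and let-7i-5p at 0.12 and 0.11, each with an SE of at most 0.11. Their 95% intervals in both treatments lay between -0.30 and 0.32. Over the alternatives other than leaving out 1 array, let-7d-5p was called in 1 of 19 in CPA and 1 of 20 in saline rats. let-7e-5p and let-7i-5p were called in 0 of them. A second, dimmer probe of let-7e-5p stood at 0.13 in CPA and 0.21 in saline rats, and that of let-7i-5p at 0.16 and 0.25, so these probes lay above the brighter ones.

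miR-98-5p, the X-linked member, was dim on these arrays. It had log2 signals of 4.08, 3.96, 4.18, 4.49 and 4.29 in CPA round spermatids, against 4.15, 4.35, 4.95, 5.10 and 5.03 in CPA pachytene spermatocytes. It had 4.14, 4.09, 4.48, 4.75 and 4.36 in saline round spermatids and 4.54, 4.13, 4.82, 4.96 and 4.82 in saline pachytene spermatocytes. Only 1 spot of its brighter probe was well above background in CPA round spermatids of rat 14 and 2 in saline round spermatids of rat 16. On every other array 8 to 10 spots were. The groups overlapped in both treatments, since the 4 pachytene arrays of slide 1, 2 in each treatment, stood within the round spermatids' range. The difference was -0.52 ± 0.19 (SE, adjusted p by limma 0.0298) in CPA rats and -0.29 ± 0.19 (0.238) in saline rats. With the slide as a block in the model it was -0.42 in CPA and -0.38 in saline rats, past the threshold in both (adjusted p 0.0118 and 0.0396). Within slide 2 it was -0.54 and -0.77, there with 1 round spermatid array in each treatment, and within slide 1 it was -0.18 and -0.19 and did not pass. The CPA call was lost on leaving out the pachytene array of the earlier rat 16, the later rat 16 or rat 29, or the round spermatid array of rat 14 or 15, with differences between -0.49 and -0.42. After normexp background correction, miR-98-5p stood at -0.24 in CPA and, with its direction turned, at 0.40 in saline rats, neither past the threshold.

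let-7b-3p stood close to the floor. It was at the floor of 3.61 on 2 of 5 CPA pachytene and 4 of 5 saline pachytene arrays and on 0 of 10 round spermatid arrays. Over its 4 probes together, at least 1 spot was well above background on 3 of 5 saline pachytene arrays and on 5 of 5 arrays of each other group. On the brightest probe, which gave the signals, 0 spots were so in CPA round spermatids of rat 14. The same held for CPA pachytene rat 29 and saline pachytene rats 13 and 25. The signals above the floor were 3.96, 3.80, 3.75, 3.86 and 4.94 in CPA round spermatids, against 3.66, 3.68 and 3.65 in the pachytene arrays of CPA rats 7, 15 and later 16. Saline round spermatids had 3.68, 4.46, 4.11, 4.47 and 4.36, and the saline pachytene array of rat 16 had 4.01. All CPA round spermatid arrays thus lay above all CPA pachytene arrays, though the 3.96 of rat 14 came from spots not well above background. let-7b-5p and let-7b-3p were the 2 members without overlap in CPA rats, beside 41.9% of all tested miRNAs, and no member was without overlap in saline rats, beside 35.9%. The fitted difference, which depends on the floor, was 0.42 ± 0.19 (SE, adjusted p by limma 0.0679) in CPA and 0.53 ± 0.19 (0.0262) in saline rats. A floor 1 log2 unit lower gave 0.87 and 0.97, both past the threshold. The saline call was lost without any one of pachytene rats 13, 25, 26 and 28 or round spermatid rats 16, 25 and 28, at 0.46 to 0.51. The CPA difference passed without the round spermatid array of rat 16, at 0.50 with an adjusted p of 0.0410. With the slide as a block the difference was 0.32 in CPA and 0.18 in saline rats, neither past the threshold. In the main fit the 5p and 3p arms of the let-7b precursor gave differences of opposite sign between the cell types, with only the 5p arm called in both treatments. Within slide 1 alone let-7b-3p stood at -0.13 in saline rats, the same sign as let-7b-5p.

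**Figure D3:**
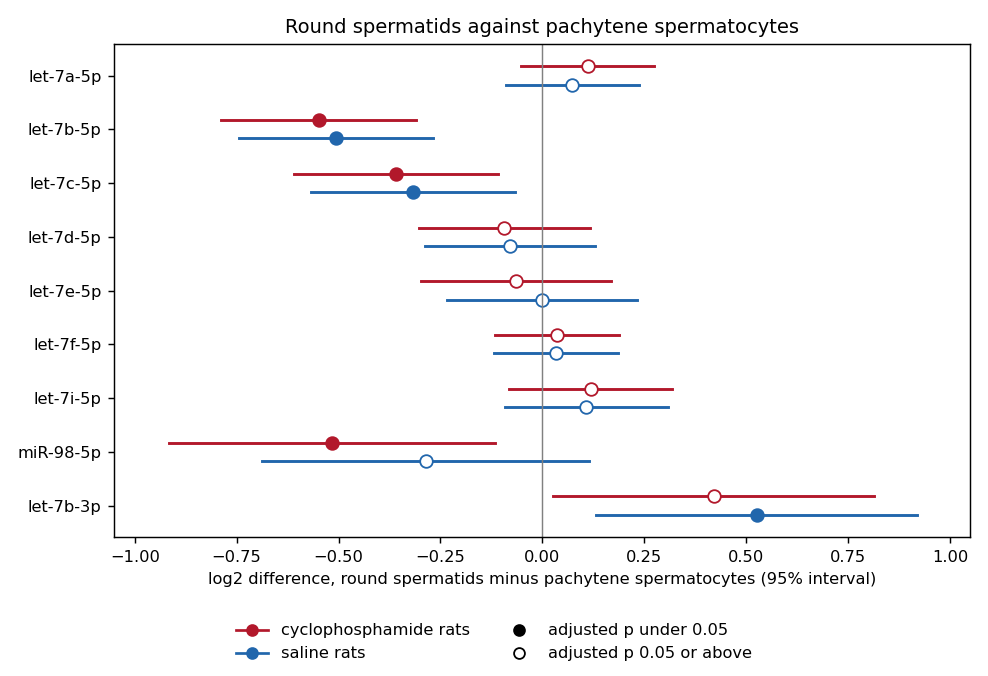
Log2 difference between round spermatids and pachytene spermatocytes for each member, with its 95% interval, in CPA rats (red) and saline rats (blue), from limma. Filled points had an adjusted p under 0.05. let-7b-5p and let-7c-5p lie below 0 in both treatments, and the intervals of the other members but miR-98-5p in CPA rats and let-7b-3p include 0.

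Fractions differed in markers of other cells. Of the 8 mesenchymal and muscle miRNAs 5 were tested and all 5 were higher in round spermatids in both treatments. Their summed linear signal was 1934 to 3783 in CPA and 2353 to 3537 in saline round spermatids, against 507 to 876 in CPA and 625 to 1243 in saline pachytene spermatocytes. miR-145-3p of that list was at the floor on all arrays. The 6 blood cell miRNAs summed to 172 to 234 in CPA and 181 to 244 in saline round spermatids. In CPA and saline pachytene spermatocytes they summed to 100.0 to 142 and 120 to 146. Of these, miR-144-3p was at the floor on all arrays, and miR-142-5p and miR-451-5p on all pachytene arrays. Only 3 were tested, and they did not move alike. miR-223-3p was higher at 1.95 in CPA and 2.15 in saline rats. miR-142-3p stood at 0.76 and 0.53, called in CPA rats only. miR-150-5p stood at -0.36 and -0.25, not called. The 2 endothelial miRNAs summed to 55.9 to 84.2 and 61.6 to 118 in CPA and saline round spermatids, against 86.5 to 192 and 76.9 to 283 in CPA and saline pachytene spermatocytes. The 4 spermatogonial miRNAs moved in opposite directions, with miR-221-3p at -1.70 in CPA and -1.64 in saline rats, miR-222-3p at -1.55 and -1.40, and miR-146a-5p at 1.61 and 2.0, all past the threshold. miR-21-5p stood at -0.09 in CPA rats and was lower in saline rats at -0.20. The 4 summed to 631 to 672 and 604 to 680 in CPA and saline round spermatids and 619 to 822 and 712 to 793 in CPA and saline pachytene spermatocytes. Their part in the differences of the let-7 members was not tested.

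Cyclophosphamide against saline gave 0 called members in either cell type, and limma called 0% of all 217 tested miRNAs. At an unadjusted p under 0.05 there were 7 miRNAs in round spermatids and 1 in pachytene spermatocytes, none of them a member. No member had groups without overlap, beside 0.461% of all tested in pachytene spermatocytes and 0% in round spermatids, and no member's ratio to let-7a-5p did, beside 0.926% and 0%. In round spermatids the log2 differences of the members lay between -0.17 for miR-98-5p and -0.0034 for let-7a-5p. In pachytene spermatocytes they lay between -0.13 for let-7i-5p and 0.06 for miR-98-5p. let-7b-5p averaged 8.26 ± 0.22 (SD, n = 5) in CPA and 8.39 ± 0.22 in saline round spermatids, and 8.81 ± 0.13 in CPA and 8.90 ± 0.13 in saline pachytene spermatocytes. The order of its 4 group means, from low to high, was therefore CPA round spermatids, saline round spermatids, CPA pachytene and saline pachytene spermatocytes, and within a cell type the neighbours did not differ beyond their spread. All 18 intervals of the drug difference lay within 1.5-fold in either direction, the widest reaching -0.57 in round spermatids for miR-98-5p.

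The drug differences were below 0 for 9 of 9 members in round spermatids and for 8 of 9 in pachytene spermatocytes, against 38.7% and 42.4% of all tested miRNAs. Most 5p members varied together from array to array within groups, so their signs are not separate evidence. In round spermatids the members' median was -0.10, and -0.0081 without saline rat 25, the highest array of its group for 9 of 9 members. Without any other single array the median lay between -0.16 and -0.04. With the slide as a block, 5 of 9 members stood below 0 in round spermatids. Within slide 2 alone 6 of 9 did, within slide 1 alone 2 of 9, and without slide 3 it was 3 of 9. In pachytene spermatocytes 5 of 9 stood below 0 within slide 2 alone and 9 of 9 within slide 1 alone. Whether the stage difference itself differed between CPA and saline rats was tested as an interaction. That test called 0 members and 0% of all tested miRNAs, with 1 miRNA at an unadjusted p under 0.05. The value farthest from 0 among the members was -0.23 ± 0.27 (SE) for miR-98-5p, with a 95% interval of -0.80 to 0.34. Within slide 2 alone let-7b-3p was called lower in CPA round spermatids, where each treatment had 1 such array, on rats 25 and 16.

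**Figure D4:**
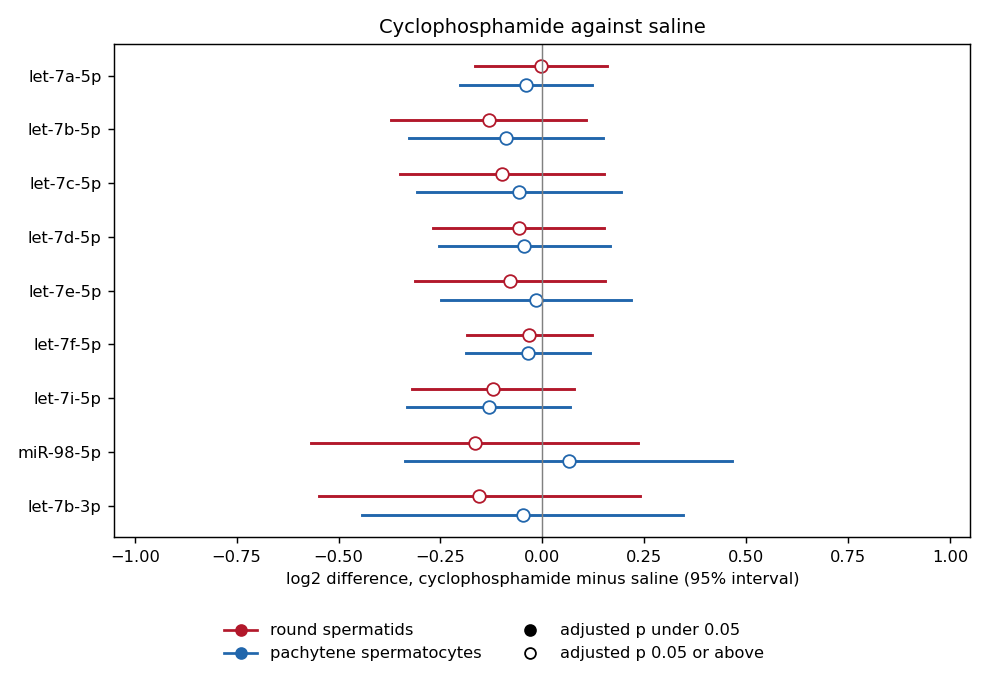
Log2 difference between cyclophosphamide and saline for each member, with its 95% interval, in round spermatids (red) and pachytene spermatocytes (blue), from limma. All points are open, since none had an adjusted p under 0.05, and every interval includes 0.

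The slide of the array was tested within each cell type, with treatment in the model. Each slide held cell fractions of other rats, so a slide difference cannot be told apart from one between fractions. In pachytene spermatocytes 3 of 5 tested germ cell markers were called lower on slide 2. Called higher were 1 of 4 spermatogonial miRNAs (miR-221-3p, 0.74) and 1 of 5 mesenchymal and muscle miRNAs. Of the blood cell miRNAs 1 of 3 was called lower, and 0 of 2 endothelial ones were called. Their part was not tested. In pachytene spermatocytes 2 of 9 members were higher on slide 2 than on slide 1, miR-98-5p and let-7d-5p, beside 24% of all tested miRNAs called in either direction, 11.1% called higher and 12.9% lower. miR-98-5p stood at 4.95, 5.10 and 5.03 in CPA and 4.82, 4.96 and 4.82 in saline pachytene spermatocytes on slide 2, against 4.15 and 4.35 in CPA and 4.54 and 4.13 in saline pachytene spermatocytes on slide 1. The slides did not overlap for this miRNA, which held for 18.4% of all tested. The difference between slides was 0.65 ± 0.09 (SE), 1.57-fold (limma's adjusted p 0.00245). It exceeded the stage difference of miR-98-5p in either treatment, and its dimmer probe gave 0.51. It was called in all 10 fits that left out 1 array, at 0.59 to 0.76. After normexp background correction the value was -0.43, with an adjusted p of 0.230. Without scaling between arrays, where the median of all tested miRNAs moved to 0.34, it was 1.03 and missed the threshold at 0.0597.

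let-7d-5p averaged 7.59 ± 0.09 (SD, n = 6) on slide 2 and 7.38 ± 0.10 (n = 4) on slide 1 in pachytene spermatocytes, with overlap. The difference of 0.21 ± 0.06 (SE) had an adjusted p of 0.0431. It stayed past the threshold in 2 of the 10 fits without 1 array, those without saline rat 13 or 28, and lay between 0.18 and 0.25 over all of them. By their brightest probes, the other 7 members had slide differences between -0.12 and 0.16 in pachytene spermatocytes, none called. The dimmer probe of let-7f-5p gave 0.40 and that of let-7c-5p 0.28, so their probes disagreed in size. The dimmer probes of the rest of these members lay between -0.11 and 0.16. With the mean over all probes, let-7f-5p stood at 0.24 and was called (limma's adjusted p 0.0101). Leaving out saline rat 13 brought let-7b-5p to 0.20 with an adjusted p of 0.0399.

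In round spermatids the test of slide 3 against slides 1 and 2 was thereby also a test of the later scan day. In it 0 of 9 members passed, beside 8.76% of all tested miRNAs (1.84% higher and 6.91% lower). No member was without overlap there, against 12% of all tested. The member with the largest value was let-7b-3p at 0.59 ± 0.22 (SE, adjusted p by limma 0.157). It stood at 4.94 in the CPA array and 4.11, 4.47 and 4.36 in the saline arrays on slide 3. Slides 1 and 2 held 3.96, 3.80, 3.75 and 3.86 in CPA and 3.68 and 4.46 in saline round spermatids, so saline rat 16 of slide 2 was the one array that overlapped. Without that array the difference was 0.88 with an adjusted p of 0.00869. miR-98-5p averaged 4.47 ± 0.20 (SD, n = 4) on slide 3, 4.29 on slide 2 (n = 2) and 4.09 ± 0.10 (n = 4) on slide 1, a difference of 0.29 ± 0.13 for slide 3 against the rest that did not pass. Of the groups, CPA round spermatids had 3 of 5 arrays on slide 1, where miR-98-5p was lowest, and saline round spermatids had 1 of 5.

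**Figure D5:**
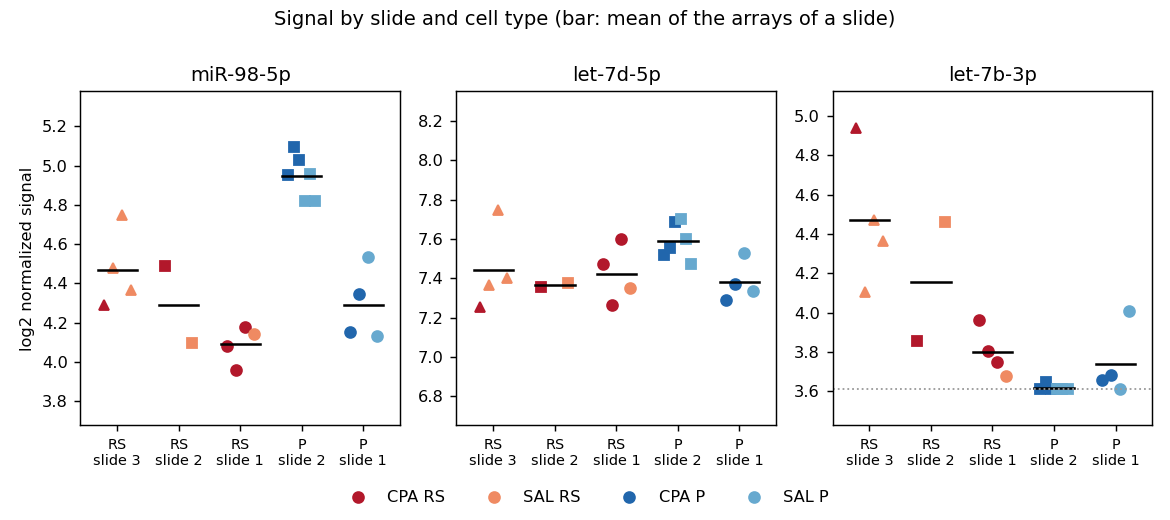
Normalized log2 signal of miR-98-5p, let-7d-5p and let-7b-3p by slide, within round spermatids (RS, slides 3, 2 and 1) and pachytene spermatocytes (P, slides 2 and 1). Colours mark the group, bars the mean of a slide's arrays and the dotted line the floor. All 6 pachytene arrays of slide 2 lie above the 4 of slide 1 for miR-98-5p.

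Variation from array to array within groups differed among the members. After the group means were subtracted, the 36 pairs of members correlated at a median r of 0.54 over the 20 arrays, from -0.17 to 0.95, beside a median of 0.0046 over the 21528 pairs of other tested miRNAs, with quartiles at -0.24 and 0.28. The 21 pairs of 5p members other than let-7a-5p lay between 0.35 and 0.95. let-7a-5p ranged from -0.03 with let-7b-5p to 0.76 with let-7f-5p, and let-7b-3p stood below 0 with all 8 others, at -0.17 to -0.0034. All of these values share each array's scaling. let-7c-5p and let-7d-5p, which differ at 3 bases, were the closest pair, and let-7e-5p and let-7i-5p, which differ at 5 bases, reached 0.92. The 4 pairs 1 base apart ran from 0.15 to 0.94, and the 6 pairs 4 bases apart ran from 0.39 to 0.88. The saline round spermatid array of rat 25 was the highest of its group for 9 of 9 members, as for 24.4% of all tested miRNAs. In CPA round spermatids the array of rat 16 was highest for 7 of 9 members, as for 16.6% of all tested.

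Other miRNAs of the same precursors and clusters were followed from a list. Of the 8 other precursor arms on the array, 0 were tested, because Feature Extraction did not detect them on all arrays of any group, and 7 were detected on no array of each group. Of the 11 clustered neighbours, from the families of miR-99, miR-100 and miR-125, 8 were tested. miR-100-5p, made near a let-7a precursor, was lower in round spermatids by limma, at -1.14 ± 0.13 (SE, adjusted p 4.74e-07) in CPA and -1.04 ± 0.13 (1.75e-06) in saline rats. miR-99b-5p, made near let-7e, was lower in CPA rats at -0.32 ± 0.11 (adjusted p 0.0241) and stood at -0.21 in saline rats (0.138). The other 6 lay between -0.24 and 0.15 in both treatments and none passed. The median of the 8 was -0.17 in CPA and -0.07 in saline rats.

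miR-202-3p, a gonadal miRNA whose first 8 bases differ from those of let-7a-5p by U1A and, inside the seed, G8U, was lower in round spermatids in both treatments.
miR-202-3p: aGAGGUAUagcgcaugggaaa
Its log2 difference was -1.55 ± 0.18 (SE, adjusted p by limma 4.13e-07) in CPA and -1.77 ± 0.18 (1.14e-07) in saline rats. It was the only tested miRNA of 5 listed with a related seed.

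Outside the family, the tested miRNAs whose pattern was most like the mean of the centred members over all 20 arrays were miR-99b-5p (Pearson r 0.73), miR-99a-5p (0.69), miR-125a-5p (0.67), miR-186-5p (0.61) and miR-352 (0.60). Within groups, after the group means were subtracted, they were miR-100-5p (0.86), miR-26b-5p (0.75), miR-107-3p (0.70), miR-99b-5p (0.69) and miR-3585-5p (0.66). The 20 arrays share their scaling and slides across all these miRNAs, and the correlations are a description. Neighbours of let-7 genes thus held the first 3 places over all arrays and the first place within groups.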

How the data were processed

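miRNA levels were measured on 20 one-colour Agilent arrays. Intensity per spot came from the deposited scanner output, which was not scaled between arrays. Per the file headers and the submitters' processing notes, the authors made them with background subtraction in Agilent Feature Extraction 11.5.1.1. The file of CPA round spermatid rat 14 holds them rounded to 3 digits. A deposited table of log2 values, centred per miRNA by the authors (the sources used here do not give its normalization), served as an alternative. It was used for the 184 miRNAs whose values followed the scanner values at r over 0.5, 7 of them members (not let-7a-5p and let-7f-5p). Being limited to miRNAs that followed the scanner values, it was not an independent test of the calls.

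Each array was scaled to the 75th percentile of 2176 spots, those well above background everywhere. A floor of 12.2, which is 3.61 after log2, was set on the scaled signals. Control and outlier spots were left out, no spot was saturated, and 18.9% to 31.4% of an array's spots were well above background. The spots of a probe were averaged and the brightest probe stood for its miRNA. The number of arrays limits the precision. The 217 miRNAs that Feature Extraction detected throughout 1 group or more were fitted with limma 3.58.1 in R 4.3.3, with 4 group means and 16 residual degrees of freedom, and p-values were adjusted by Benjamini and Hochberg with a threshold of 0.05. Slides were compared within a cell type with treatment in the model. In simulated data for the saline stage comparison over 217 miRNAs, 13 of 20 changes of 0.5 and 20 of 20 changes of 1 on the log2 scale were recovered, with 2 false calls. For the drug comparison in round spermatids, 12 of 20 changes of 0.5 and 20 of 20 changes of 1 were recovered, with 3 false calls.

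Alternatives covered scaling, background, probe summary, filter, floor, slide, scan day, rat number, left-out arrays and the deposited table. The Feature Extraction mean signal was not used here, so normexp started from the median signal with an offset of 50. All members are named in each comparison. Other miRNAs named are the 5 most like the members by each measure and the tested ones of the lists of other arms, clustered neighbours and related seeds. The members, lists and tests were chosen with earlier results of these data known. Rat numbers were not used as pairs, since neither the labels nor the data settle a pairing. The deviations of same-numbered arrays correlated at 0.07, 0.19 and -0.30 in saline and at 0.12, 0.21 and -0.12 in CPA rats. The 0.21 and -0.12 set the earlier and the later pachytene rat 16 against the same spermatid array, so these values are not separate pairs. Mature sequences and coordinates are from RefSeq, GRCr8, matched by miRNA name.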

Additional observations from a re-analysis of the deposited data

Results flagged for a closer look

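An array stood far from the other 4 of its group, by Dixon's criterion at 95%, in 5 of the 36 sets formed by 9 members and 4 groups. Chance gives such a gap in about 1 of 20 groups, and several of these sets share an array. In saline round spermatids, let-7a-5p was low in rat 16 at 9.82, let-7c-5p was high in rat 25 at 9.54 and let-7d-5p was high in rat 25 at 7.75. let-7b-3p was high at 4.94 in CPA round spermatids of rat 26, the group's single array on slide 3. It was high at 4.01 in saline pachytene spermatocytes of rat 16, where the other 4 arrays stood at the floor. With 4 arrays at the same floor value, any signal above it meets the criterion. That set is therefore not comparable with the chance rate.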

How the results depend on the processing

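Over the alternatives run, let-7b-5p stayed lower in round spermatids in both treatments and lost its call within slide 1 alone and, in saline rats, with rat number as a fixed replicate block. Quantile normalization called 5 members in the CPA stage comparison and turned let-7a-5p to -0.21 in both treatments and let-7f-5p to -0.27 in CPA and -0.24 in saline rats. In saline rats 1 member was called with normexp, the mean over all probes, the gene-level total signal, no filter, without slide 3, with scan day as a block, with the deposited table, and without CPA round spermatid rat 14 and saline round spermatid rat 16, a setting chosen after seeing the data. With array weights, also chosen after seeing the data, 3 were called in each treatment. Within slide 1 alone 0 members were called in either treatment, and let-7b-3p stood at -0.13 in saline rats. In CPA rats normexp and no filter each left 1 call. Within slide 2 alone 1 member, let-7b-3p, was called in the CPA against saline comparison of round spermatids and in the test of the difference of the stage change. Leaving out 1 array gave 1 to 3 called members in saline rats (1 without pachytene rats 13, 25 or 26 or round spermatid rats 16 or 28), 1 to 4 in CPA rats (1 without pachytene rat 29 or round spermatid rat 15, 4 without round spermatid rat 16), 1 to 3 between slides in pachytene spermatocytes (3 without saline rat 13, 2 without saline rat 28 and 1 without any of the others) and 0 to 1 in round spermatids (1 without saline rat 16).

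Rat numbers in the labels gave a replicate block in 2 forms. With the number as a random block, whose estimated correlation was 0.08, 3 members were called in each treatment. As a fixed replicate block in the 3 saline numbers shared by both cell types it called 1 member, let-7b-3p, and let-7b-5p stood at -0.39 with an adjusted p of 0.134. let-7c-5p stood at -0.22 with an adjusted p of 0.271. The random block changed no call of a member, and the number of called miRNAs was 66 with the fixed block and 104 without it. Between slides 2 and 1 in pachytene spermatocytes, 4 members were called with quantile normalization and 3 with the mean over all probes, let-7f-5p among them in both. The count was 1 each with the 75th percentile over all probes, the total signal and no filter. It was 0 with no scaling and 0 with normexp, where miR-98-5p stood at -0.43. In round spermatids 1 member was called for slide 3 with quantile normalization, the mean over all probes and slide 3 against slide 1 only. Without scaling, the median of all tested miRNAs moved to -0.23 in CPA and -0.37 in saline rats for the stage comparison, and the median of the 9 members to -0.47 and -0.48. Normexp moved the median of all tested miRNAs to 0.44 in saline rats, while that of the 9 members was 0.0061. Of all tested miRNAs, the CPA stage comparison called 115, but 38 with normexp, 72 with no scaling and 73 within slide 1. The saline one called 104, but 29 with normexp and 56 within slide 1. Slide 2 alone called 23 in the drug comparison of round spermatids and 17 in the difference of the stage change, against 0 each. The pachytene slide comparison called 52, but 0 with no scaling or normexp, 25 with no filter, 31 without CPA rat 15 and 32 without saline rat 16. The one in round spermatids called 19, but 1 with no scaling or normexp, 4 with no filter, 4 without CPA rat 26, 10 without saline rat 15 and 12 without saline rat 28. The causes of these changes were not tested. let-7b-3p and miR-98-5p lay nearest the floor, where signal over background limits the values.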
